A study of Mus musculus with 15 samples.

Results

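Among the long intergenic noncoding RNA (lincRNA) exons measured in developing mouse liver, 22 had a mean signal in the neonate at least a doubling above those of early fetal and adult liver. The array carries 3457 lincRNA exon probes, 1874 of them detected, here meaning well above background on every array of 1 stage or more, and the 22 come from those 1874. A probe was taken when its neonatal mean exceeded the highest of its E12.5, E14.5 and adult means by at least 1 on the log2 scale, which is a doubling. Those 4 stage means chose the probes, so the contrasts among them are given below as a description, with no test. The E17.5 arrays did not enter the choice.

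The liver RNA came from C57BL/6 mice with no treatment or altered allele named in the labels, at E12.5, E14.5 and E17.5 of gestation, in the neonate and in the adult of 8 weeks, with 3 arrays for each of the 5 stages. Whether a stage's arrays stand for different animals or for pools is not stated in the labels, so the spread and p-values measure the difference between these samples, which may be technical. Each probe's level is log2 of its processed spot signal minus the 75th percentile of its own array, so 0 marks a signal at that percentile and each unit is a doubling. Levels are compared between stages for 1 probe and not between probes. In such whole-tissue RNA, fewer cells of a type and less RNA per cell cannot be told apart.

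LincRNAs are long transcripts from the stretches between protein-coding genes that are spliced much like messenger RNA but hold no long open reading frame. Many are made in 1 tissue or for a short time, and the ones studied closely act in different ways, for example by bringing chromatin-modifying complexes to genes or by binding proteins and microRNAs. The liver is the main blood-forming organ of the fetus, and around birth it loses that role while its hepatocytes take up glucose production, fat oxidation and bile acid synthesis.

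The exons carry names such as MM9LINCRNAEXON12103+, shortened here to 12103+. Each exon number stands on the array with a plus and a minus probe for 1728 of 1729 numbers. What the number means, and which sign is the transcribed strand, is not given in the sources used here, and probe sequences, positions and host transcripts were not used here. The 22 probes fell on 22 different numbers, 10 with the plus and 12 with the minus sign, and for none of these numbers did both signs meet the rule. Roles of these exons are therefore not described.

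By the scan date in the file headers the arrays fell into 2 sets. These sets are called slides here as a short name for the scan date set. They were not formed from a physical slide named in the headers. Slide 1 held E12.5, E14.5 and E17.5 replicates 1 and 2, and slide 2 held E17.5 replicate 3 with all neonatal and adult arrays. E17.5 was thus the only stage on both slides, and neonatal liver shared a slide with adult liver but not with E12.5 or E14.5 liver. E17.5 replicate 1 stood apart: 80.9% of its noncontrol spots and 55.8% of its negative-control spots were well above background, against 50.9% to 62.9% and 4.0% to 9.58% on the other arrays. Defining hepatocyte genes could not be looked up, since 0 of the 6 listed were matched to a probe through their accessions. Of 7 listed erythroid genes 1 was matched, Tfrc, the transferrin receptor, with means of 8.86 ± 0.15 (SD, n = 3) at E14.5, 8.59 ± 0.61 at E17.5, 8.16 ± 0.16 in the neonate and 5.50 ± 0.39 in the adult.

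**Figure D1:**
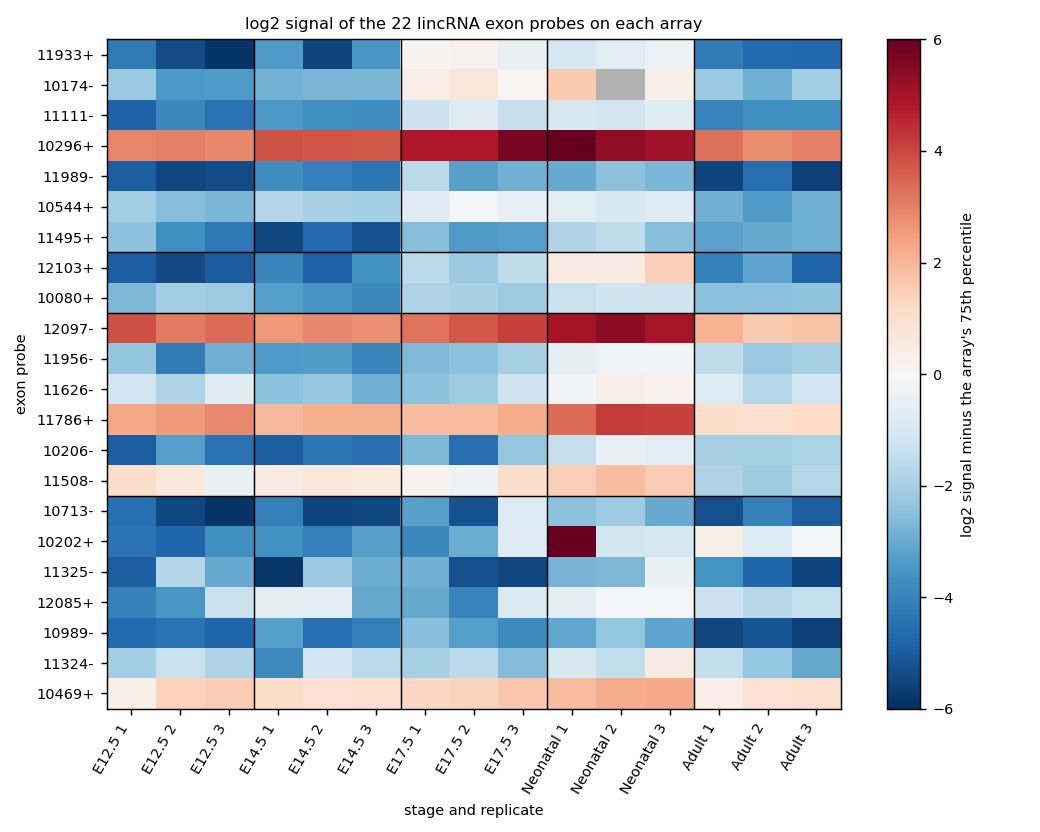
Level of the 22 lincRNA exon probes (rows) on each of the 15 arrays (columns, in stage order), as log2 signal minus the array's 75th percentile. The colour scale ends at -6 and 6, grey marks the 1 value left out, and horizontal lines separate, from top to bottom, the 7 exons that rose between E14.5 and E17.5, the 2 that rose at both steps, the 6 that rose between E17.5 and the neonate, and the 7 that passed neither test.

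All 22 probes were well above background on the 3 neonatal arrays. Only 7 were so on all 15 arrays, and of the 330 values behind the 22 probes 235 were well above background. The number for which no array of a stage was well above background was 8 at E12.5, 5 at E14.5 and 6 in the adult. On 9 arrays many probes share a single lowest value, and 11 of the 330 values sit there, all of them at E12.5, E14.5 or E17.5. The 9 are the slide 1 arrays and adult replicate 2, which had no multiplicative detrending, and no neonatal array is among them. Neonatal values were thus processed unlike the E12.5 and E14.5 values they are set against, and the part of this in the differences was not tested. Where a stage had no array well above background, its fold is given as a bound: the bright stage's mean against, on each dim array, the lowest signal that any probe well above background had, or the probe's own value where that was higher. The bright stage's mean can itself hold values not well above background, and the bound is then not a strict lower limit. Limma tests the measured difference and not the bound.

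The differences behind the selection ran from 4.83 for 12103+ to 1.04 for 10080+. In order they were 4.83 for 12103+, 3.48 for 11933+, 3.36 for 10174-, 2.68 for 11111- and 2.23 for 10713-, and the remaining 17 lay at 1.67 or lower. Some of these differences are set against values that were mostly not well above background: of the 3 arrays of the highest other stage, 1 was so for 12103+, 11933+, 11111- and 10989-, and none was for 10713- and 11989-. For these last 2 the neonatal level was at least 1.81-fold above the adult (10713-) and at least 1.56-fold above E14.5 (11989-), bounds that lie under the doubling the rule asks of the measured means. The highest of the other stages was E12.5 for 6 exons, E14.5 for 8 and the adult for 8. Every neonatal array lay above every E12.5, E14.5 and adult array for 18 of the 22, as it did for 5.04% of all 37363 probes tested; these values chose the exons, and nothing is read from that count. The same difference was met by 2.81% of all probes tested and by 1.17% of the lincRNA exon probes tested. Just inside the threshold lay 11508- and 10080+, both at 1.04, and just outside it 11441- at 0.95 and 10572- at 0.93.

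Of the 22 exons, 9 rose between E14.5 and E17.5, where 6.29% of all probes tested rose. Between E17.5 and the neonate 8 rose, where 8.40% of all probes tested rose, and with slide as a block 2 exons were called at that step. Only 12103+ and 10080+ rose at both steps, 7 rose at the first alone by these tests, 6 at the second alone, and 7 passed neither. The E17.5 mean was not used to choose the exons, but each step shares 1 stage with the rule: a low E14.5 mean and a high neonatal mean both favoured selection. For that reason nothing is read from the excess over all probes. Both tests used limma on all 15 arrays, with Benjamini-Hochberg adjustment over all 37363 probes and a threshold of 0.05.

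Exon 12103+ had the largest selection difference. Its levels in replicate order were -4.96, -5.42 and -4.98 at E12.5 and -3.96, -4.85 and -3.64 at E14.5, none of them well above background. They were -1.60, -2.16 and -1.54 at E17.5, 0.50, 0.49 and 1.44 in the neonate, and -4.08, -3.18 and -4.82 in the adult. The E17.5 arrays lay above every earlier array and below every neonatal array, and the adult arrays were back within or near the E14.5 range. The E17.5 level was at least 3.07-fold above E14.5, and the measured log2 difference was 2.38 ± 0.42 (SE, limma adjusted p = 0.0034). The neonatal level was a further 5.96-fold above E17.5, a log2 difference of 2.58 ± 0.42 (SE, limma adjusted p = 0.00117). Within slide 2, where E17.5 has replicate 3 alone, that difference was 2.35. As a description, the neonatal level was at least 15.2-fold above E12.5 and at least 18.3-fold above E14.5, and in the adult 1 of 3 arrays was well above background.

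Exon 11933+ had its highest mean at E17.5. Its values were -4.22, -5.39 and -5.89 at E12.5, then -3.39, -5.53 and -3.50 at E14.5, then 0.18, 0.26 and -0.42 at E17.5, -0.99, -0.65 and -0.35 in the neonate, and -4.21, -4.68 and -4.72 in the adult. The E17.5 and neonatal arrays overlapped each other and stood apart from the remaining 9. The rise from E14.5 to E17.5 was 4.15 ± 0.52 (log2, SE; limma adjusted p = 0.000253), the largest measured difference at this step among the 22. It starts from a dim level, since 1 of the 3 E14.5 arrays was well above background and replicate 2 sat at the lowest value of its array. The neonatal mean was 0.67 lower than the E17.5 mean, which did not pass (adjusted p = 0.397).

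In the minus-sign exons 10174- and 11111- the E17.5 and neonatal arrays also overlapped. For 10174- the levels were -2.23, -3.46 and -3.40 at E12.5 and -2.84, -2.76 and -2.75 at E14.5. They were 0.42, 0.70 and 0.10 at E17.5, 1.57 and 0.34 on neonatal replicates 1 and 3, and -2.24, -2.91 and -2.07 in the adult, and the spot of neonatal replicate 2 was left out as an outlier of the scanner software. E17.5 thus lay above every array of E12.5, E14.5 and adult liver and overlapped the neonate. The neonatal mean was 0.55 above E17.5 without that spot, 1.37 above it with outlier spots kept and 1.28 above it in the authors' values, and none of these passed (limma adjusted p = 0.41, 0.12 and 0.117).

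For 11111- the levels were -4.87, -3.86 and -4.50 at E12.5, then -3.44, -3.69 and -3.71 at E14.5, then -1.30, -0.72 and -1.38 at E17.5, -0.96, -1.13 and -0.70 in the neonate, and -4.02, -3.66 and -3.67 in the adult. The E17.5 and neonatal arrays stood above the rest; replicate 2 of E17.5 lay within the neonatal range and the other two below every neonatal array. The E17.5 minus E14.5 difference was 3.19 ± 0.39 for 10174- and 2.48 ± 0.28 for 11111- (SE; limma adjusted p = 0.000298 and 0.000101). Over the 15 arrays, the levels of 11933+ and 11111- had a Pearson correlation of 0.94, a description of probes that were chosen on a shared shape and read on the same arrays.

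Exon 10296+ was well above background on all 15 arrays. Its levels were 2.94, 3.04 and 2.89 at E12.5, then 3.80, 3.76 and 3.75 at E14.5, then 4.82, 4.81 and 5.68 at E17.5, 5.99, 5.31 and 5.02 in the neonate, and 3.31, 2.81 and 3.04 in the adult. The 3 E17.5 arrays lay above all E14.5 arrays and within or just below the neonatal ones. The rise to E17.5 was 1.33 ± 0.29 (SE, limma adjusted p = 0.0136), and it missed the threshold without E14.5 replicate 2 (adjusted p = 0.0541) or replicate 3 (0.0506).

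Exon 10544+, also well above background on every array, measured -2.06, -2.57 and -2.74 at E12.5, then -1.77, -1.93 and -2.04 at E14.5, then -0.77, -0.08 and -0.48 at E17.5, -0.67, -0.91 and -0.79 in the neonate, and -2.90, -3.38 and -2.95 in the adult. Its E17.5 and neonatal values overlapped, and the adult values were the lowest of all. The E17.5 minus E14.5 difference was 1.47 ± 0.25 (SE, limma adjusted p = 0.00273).

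Exons 11989- and 11495+ completed the 7 that passed at the first step alone, both from a stage with no array well above background. At E14.5 the 3 values were -3.71, -4.12 and -4.38 for 11989- and -5.48, -4.67 and -5.21 for 11495+. At E17.5 they were -1.60, -3.26 and -2.87 for 11989-, of which 2 were well above background, and -2.56, -3.41 and -3.31 for 11495+, of which 1 was. The E17.5 arrays were the higher in both exons, by at least 1.75-fold for 11989- and at least 1.22-fold for 11495+. Both bounds use E17.5 values not well above background. The measured log2 differences were 1.49 ± 0.40 and 2.03 ± 0.43 (SE, limma adjusted p = 0.0386 and 0.0105). The 1 E17.5 array of 11495+ well above background was replicate 1, the array with raised negative controls. For 11495+ the values were -2.45, -3.66 and -4.30 at E12.5, of which 1 was well above background, then -1.78, -1.52 and -2.54 in the neonate and -3.19, -3.04 and -2.95 in the adult. Neither call held within slide 1 (adjusted p = 0.108 and 0.0800), and each was lost without E14.5 replicate 1 (0.0678 and 0.0571). That of 11989- was also lost without E14.5 replicate 2 or 3 or E17.5 replicate 1, with adjusted p from 0.106 to 0.138.

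Exon 10080+ rose at both steps. Its levels were -2.71, -2.06 and -2.12 at E12.5, then -3.30, -3.55 and -3.85 at E14.5, then -1.86, -1.94 and -2.13 at E17.5, -1.35, -1.20 and -1.22 in the neonate, and -2.47, -2.47 and -2.42 in the adult. The E14.5 arrays were the lowest and the neonatal arrays the highest, with no overlap with any other stage. At E14.5 1 of 3 arrays was well above background and at E12.5 2 were. The rise from E14.5 to E17.5 was 1.59 ± 0.23 (SE, limma adjusted p = 0.000741). The further step to the neonate was 0.72 ± 0.23 (adjusted p = 0.0453), and it did not pass on leaving out any of the 6 arrays of the 2 stages (adjusted p from 0.0522 to 0.130).

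Over the whole group, 9 of 22 exons rose from E14.5 to E17.5 and none fell, where 6.29% of all probes tested rose; 13 had an unadjusted p below 0.05. Their median difference was 1.27 and 18 of 22 were above 0, whereas the median was -0.06 over all probes tested and -0.05 over the other lincRNA exon probes. The E17.5 arrays lay wholly above the E14.5 arrays for 12 of the 22, as for 16.1% of all probes. A low E14.5 mean favoured selection, so nothing is read from how these counts and the median exceed those of all probes. Within slide 1, which leaves out E17.5 replicate 3, 7 exons were called, and with slide as a block 9. Leaving out E17.5 replicate 2 added 10713- (adjusted p = 0.0139) and 10206- (0.00704), and leaving out E17.5 replicate 1 added 12097- (0.0324).

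**Figure D2:**
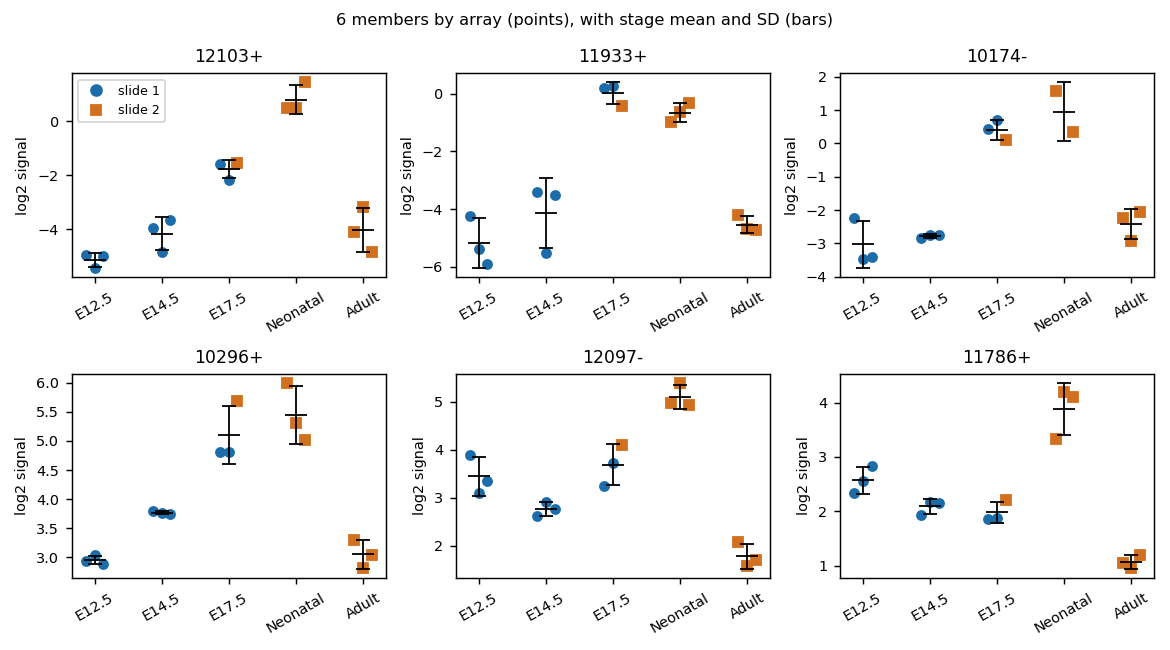
Level of 6 exons on each array, as log2 signal minus the array's 75th percentile (vertical axes, each with its own range), by stage; circles are slide 1, squares are slide 2, and bars give the mean and SD of each stage. The E17.5 and neonatal arrays of 11933+, 10174- and 10296+ overlapped, those of 12103+, 12097- and 11786+ did not, and the E17.5 and E14.5 means of 11786+ were 1.98 and 2.09.

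The 6 exons that passed at the second step alone follow. Exon 11786+ read 2.34, 2.55 and 2.83 at E12.5, then 1.94, 2.17 and 2.16 at E14.5, then 1.86, 1.89 and 2.21 at E17.5, 3.33, 4.20 and 4.10 in the neonate, and 1.05, 0.96 and 1.20 in the adult. All 9 fetal arrays lay between 1.86 and 2.83, below every neonatal and above every adult array. From E17.5 to the neonate the level rose by 1.89 ± 0.26 (log2, SE; limma adjusted p = 0.00032). This call was kept under each alternative that was run, including slide as a block and slide 2 alone, where adjusted p reached 0.049 at most.

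For 12097- the levels were 3.88, 3.10 and 3.34 at E12.5, then 2.61, 2.90 and 2.76 at E14.5, then 3.24, 3.72 and 4.10 at E17.5, 4.97, 5.38 and 4.93 in the neonate, and 2.07, 1.57 and 1.69 in the adult. The neonatal arrays were above all others and the adult arrays below all others. Every E17.5 array also lay above every E14.5 array, by 0.93 in the mean, which did not pass (limma adjusted p = 0.0639). The neonatal rise over E17.5 was 1.41 ± 0.28 (SE, limma adjusted p = 0.0042). Within slide 2, where E17.5 has replicate 3 alone, the difference was 0.99 and did not pass (adjusted p = 0.135). Levels of 12097- and 11786+ had a Pearson correlation of 0.90 over the 15 arrays, given as a description.

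In exons 11956- and 11626- the adult mean was the highest of the other stages that the rule used. In 11956- the E12.5 values were -2.34, -4.21 and -2.87, the E14.5 values -3.38, -3.34 and -3.94, the E17.5 values -2.64, -2.45 and -1.99, the neonatal values -0.59, -0.26 and -0.17, and the adult values -1.52, -2.23 and -2.00. In 11626- these were -1.16, -1.87 and -0.72, then -2.46, -2.29 and -2.89, then -2.45, -2.15 and -1.26, then -0.16, 0.35 and 0.27, and then -0.82, -1.73 and -1.16. In both exons the neonatal arrays stood above all others. The adult arrays of 11626- overlapped its E12.5 arrays, with means of -1.24 and -1.25. In 11956- every E17.5 array lay above every E14.5 array, by 1.20 in the mean, which did not pass (limma adjusted p = 0.0914).

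From E17.5 to the neonate 11956- rose by 2.02 ± 0.40 and 11626- by 2.11 ± 0.37 (SE; limma adjusted p = 0.004 and 0.00179). With slide as a block neither passed (adjusted p = 0.117 and 0.0938), and within slide 2 only 11956- of these 2 did.

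Exon 10206- was not well above background at E12.5 or E14.5, where its values ran from -4.97 to -3.32. At E17.5 they were -2.68, -4.56 and -2.32, in the neonate -1.41, -0.49 and -0.63, and in the adult -1.97, -2.01 and -1.90. Replicate 2 of E17.5 stayed at the E14.5 level while the other two were higher. The neonatal mean was 2.35 ± 0.52 above E17.5 (SE, limma adjusted p = 0.00806), a call lost with slide as a block (0.279) and within slide 2 (0.0725). As a description, the adult level was at least 2.68-fold above E14.5.

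The last of these 6 exons, 11508-, had values of 1.05, 0.61 and -0.40 at E12.5, then 0.48, 0.68 and 0.60 at E14.5, then 0.19, -0.29 and 1.07 at E17.5, 1.49, 1.87 and 1.52 in the neonate, and -1.83, -2.15 and -1.73 in the adult. Its fetal values overlapped, and the adult arrays lay far below every other array. The neonatal rise of 1.30 ± 0.37 over E17.5 (SE, limma adjusted p = 0.0288) was lost with slide as a block (0.621), within slide 2 (0.371) and on leaving out any 1 of E17.5 replicates 1 and 2 or of the neonatal replicates (0.0551 to 0.129).

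Over the group, 8 of 22 exons rose from E17.5 to the neonate and none fell, where 8.40% of all probes tested rose; 14 had an unadjusted p below 0.05. The median difference was 1.22, with 19 of 22 above 0, against 0.00 over all probes tested and -0.24 over the other lincRNA exon probes. All neonatal arrays lay above all E17.5 arrays for 13 of the 22, as for 16.1% of all probes. A high neonatal mean favoured selection, so here too nothing is read from the excess over all probes. Only 2 exons were called with slide as a block (12103+ and 11786+) and 2 within slide 2 (11786+ and 11956-). Both of those values rest on E17.5 replicate 3 as the sole E17.5 array on that slide, assumed to vary like the others.

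**Figure D3:**
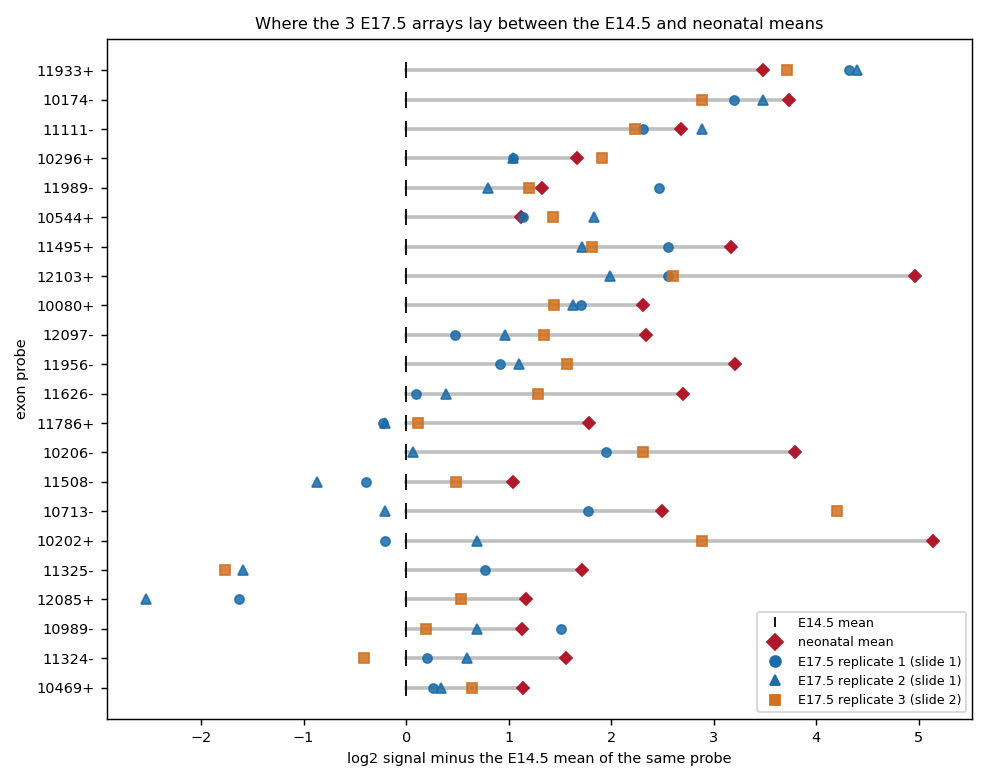
Position of the 3 E17.5 arrays between the E14.5 mean (black tick at 0) and the neonatal mean (red diamond) of each exon, as log2 signal minus that exon's E14.5 mean; circles and triangles are E17.5 replicates 1 and 2 on slide 1, and orange squares replicate 3 on slide 2. Replicate 3 was the highest of the 3 for 12 of the 22 exons, and the replicates spread widely for 10713-, 11325- and 12085+.

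The 3 E17.5 arrays were also set singly against the E14.5 and neonatal arrays. Replicates 1, 2 and 3 lay above every E14.5 array for 15, 15 and 18 of the 22 exons, and 41.3%, 34.8% and 41.6% of all probes did so on those arrays. They lay below every neonatal array for 17, 18 and 16 exons, as did 37.4%, 44.5% and 33.2% of all probes. The selection favoured both patterns, so nothing is read from these counts beside all probes. On replicate 1, the array with raised negative controls, 20 of the 22 exons were well above background, on replicate 2 14 and on replicate 3 19. The part of that background in the E17.5 values was not tested. Without replicate 1, each call at the first step except that of 11989- was kept.

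To place E17.5 between the stages before and after it, its mean was set against the midpoint of the E14.5 and neonatal means, a comparison chosen after the values had been seen. E17.5 lay above the midpoint for 11933+ (2.41 ± 0.45, SE; limma adjusted p = 0.0142) and 11111- (1.14 ± 0.24, 0.0306), and below it for 11786+, with a mean of 1.98 against a midpoint of 2.98 (difference with an SE of 0.22, 0.0365). These 3 of 22 compare with 1.68% of all probes. The E14.5 and neonatal means behind the midpoint also chose the exons, so nothing is read from that count beside all probes. At E14.5 only 1 of 3 arrays was well above background for 11933+ and for 11111-, so their midpoints rest mostly on dim values. The count moved with single arrays: it was 0 without E17.5 replicate 1 (7 at an unadjusted p below 0.05), 8 without E17.5 replicate 3, and 1 without E17.5 replicate 2, any single E14.5 replicate or neonatal replicate 2.

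The remaining 7 exons passed neither step. In 10713- the 3 E17.5 values were -3.25, -5.23 and -0.82, spanning more than the distance from E14.5 (-4.10, -5.53 and -5.45) to the neonate (-2.45, -2.11 and -3.03). In 12085+ the E17.5 values of -3.05, -3.95 and -0.88 and the E14.5 values of -0.59, -0.61 and -3.05 overlapped, while the neonatal values of -0.53, -0.13 and -0.09 lay close together. In 10989- the values were -3.31, -4.58 and -4.10 at E14.5, then -2.49, -3.31 and -3.80 at E17.5 and -3.13, -2.34 and -3.14 in the neonate, so E17.5 overlapped both while E14.5 lay below the neonate.

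Exon 10469+, well above background on all arrays, had levels of 1.10, 0.92 and 0.95 at E14.5, then 1.25, 1.33 and 1.64 at E17.5, 1.91, 2.23 and 2.26 in the neonate and 0.40, 0.92 and 0.96 in the adult. The 3 stages from E14.5 to the neonate did not overlap and stood in order. The E12.5 values of 0.34, 1.38 and 1.53 did not join that order, since they spanned the E14.5 range and overlapped that of E17.5. Neither step passed, at 0.41 ± 0.30 (SE, limma adjusted p = 0.439) and 0.73 ± 0.30 (0.106).

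Exon 10202+ was chosen on 1 array. Its neonatal values were 6.57, -1.09 and -1.06, and its adult values 0.37, -0.84 and -0.08. Neonatal replicate 1 lay far above the other two, which were below all adult arrays, and the scanner software did not mark that spot as an outlier. Without that array the neonatal mean was 0.89 below the highest other mean, and the exon did not meet the rule.

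Exons 11324- and 11325- carry consecutive numbers, and no other pair among the 22 does. In 11324- the neonatal values were -0.95, -1.48 and 0.54 and the E14.5 values -3.81, -1.14 and -1.61; in 11325- they were -2.81, -2.69 and -0.40 and -5.83, -2.23 and -2.96. In both, neonatal replicate 3 was the highest and E14.5 replicate 1 the lowest of all 15 arrays, and their levels had a Pearson correlation of 0.86 over the 15 arrays. Each failed the rule on leaving out replicate 1 of E12.5, replicate 1 of E14.5 or replicate 3 of the neonate. The other 19 probes that carry a neighbouring number with the same sign and were tested had a neonatal mean at most 0.28 above the highest other stage, with 4 of the 19 above 0 and a median of -0.62; over the lincRNA exon probes tested it was -0.83. This look at neighbours was chosen after the values had been seen.

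The opposite-sign probe of the same exon number had values that the rule did not use, and these were compared after the members' values had been seen. Of the 22, 10 were tested; of the other 12, which were not well above background on all 3 arrays of any stage, 8 were so on at most 1 array. Exactly 1 array was well above background for 7 of the 22, and for 5 of these it was E17.5 replicate 1, while 6 were well above background on all 15 arrays. Among those not tested, 12097+ met the difference of the rule but was well above background on only 2 arrays, both neonatal. Its neonatal level was at least 1.17-fold above E14.5 and at least 1.18-fold above the adult. Its Pearson correlation with 12097- over the 15 arrays was 0.80, given as a description.

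Between E14.5 and the neonate, 5 of the 10 tested opposite probes were called, 2 higher and 3 lower, where 43.0% of all probes were called. The 2 that rose were 12103-, by 1.12 ± 0.29, and 11495-, by 2.01 ± 0.27 (log2, SE; limma adjusted p = 0.00744 and 7.96e-05). The 3 that fell were 10713+, 11324+ and 11956+, by 1.18 ± 0.32, 1.33 ± 0.36 and 1.55 ± 0.46 (log2, SE, limma adjusted p = 0.00971, 0.00863 and 0.0147). No neonatal array of 11956+ was well above background, and as a bound its fall was at least 2.02-fold. With slide as a block 11495- alone was called, and 11324+ was not called without E14.5 replicate 1.

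Against the adult, 4 of the 10 were called, where 25.9% of all probes were. Higher in the neonate were 10202-, 10544- and 11495-, by 1.16 ± 0.37, 2.99 ± 0.21 and 1.22 ± 0.27, and 11508+ was lower by 1.48 ± 0.26 (log2, SE; limma adjusted p = 0.0353, 1.64e-07, 0.00486 and 0.000908). For 10544- the values were 2.50, 2.26 and 2.16 at E14.5, then 2.54, 2.71 and 2.61 at E17.5, and its mean was 2.08 ± 0.06 in the neonate and -0.92 ± 0.16 in the adult (SD, n = 3). The call of 10202- was lost without neonatal replicate 2 or 3 or adult replicate 1 or 3, and 1 of its 3 adult arrays was well above background.

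In exon 11508 the signs went apart: the adult mean was -1.90 ± 0.22 for 11508- and 3.02 ± 0.25 for 11508+, and the neonatal means were 1.62 ± 0.21 and 1.54 ± 0.08 (SD, n = 3). Over the 15 arrays the levels of the paired probes had Pearson correlations of 0.83 for exon 10544 and 0.80 for exon 11495, -0.90 for exon 11508 and -0.77 for exon 10713, as descriptions over shared arrays. Between E14.5 and E17.5 limma called 0 of the 10 opposite probes (0 at an unadjusted p below 0.05), where 7.11% of all probes were called. From E17.5 to the neonate it called 2, where 18.1% of all probes were called. These were 11495-, higher by 1.58 ± 0.27 (SE, limma adjusted p = 0.00161), and 11989+, lower by 1.60 ± 0.50 (0.0397). The second was lost without any single E17.5 replicate 1 or 2 or neonatal replicate 2 or 3. It rests partly on dim values, since 2 of 3 E17.5 arrays and 1 of 3 neonatal arrays of 11989+ were well above background.

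**Figure D4:**
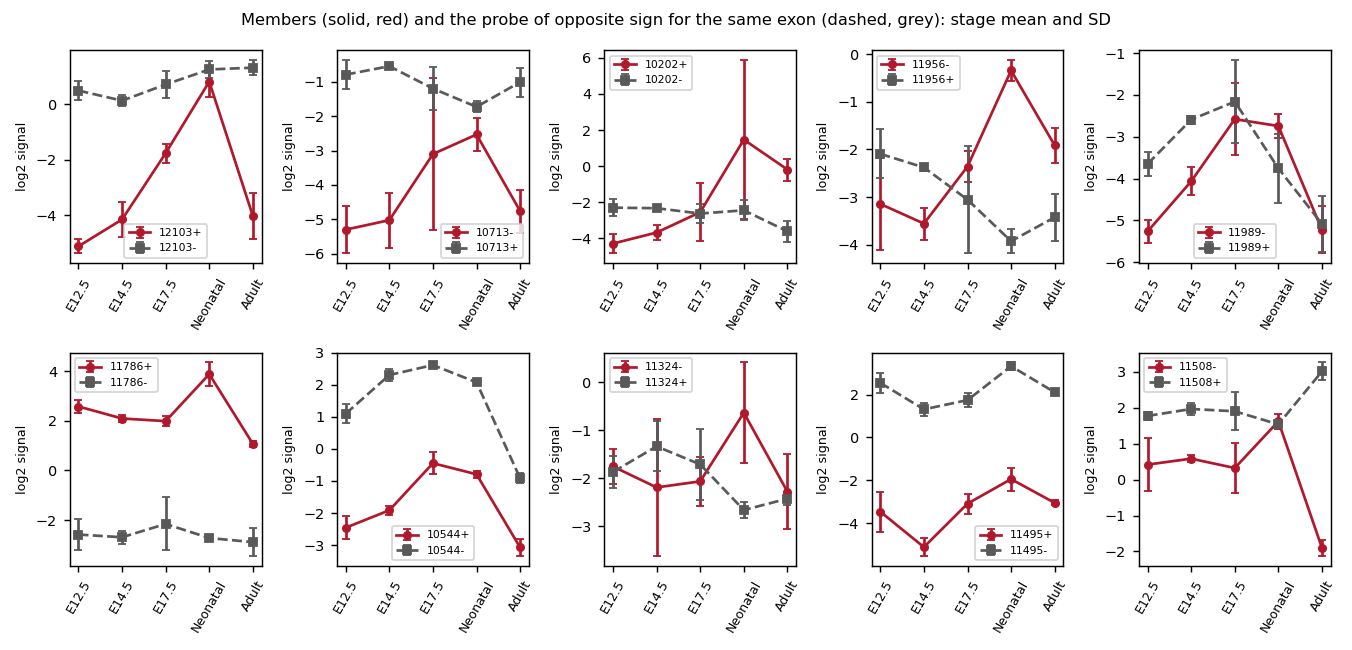
Stage means and SD (3 arrays each) of 10 chosen probes (red, solid) and of the probe of opposite sign for the same exon number (grey, dashed), as log2 signal minus the array's 75th percentile, with each panel on its own vertical range. The means of the paired probes of exons 10544 and 11495 moved in the same direction from each stage to the next, by unlike amounts. From the neonate to the adult the mean fell for 11508-, to -1.90, and rose for 11508+, to 3.02.

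How firmly an exon belonged to the group differed. On leaving out any 1 of the 15 arrays 12 of the 22 still met the rule, and 10 were lost without at least 1: 10202+, 11325-, 12085+, 10989-, 11324-, 10206-, 11495+, 10469+, 11508- and 10080+. Of the 12, 6 also met it under every scaling that held them: 12103+, 11933+, 10174-, 10296+, 12097- and 11786+, a subset seen after the values were known. With the background corrected by normexp the difference shrank to 2.41 for 12103+ and 1.19 for 11933+ and to 0.28 for 10713-, while it was 1.66 for 10296+ and 1.71 for 12097-. The deposited value table of the authors held 12 of the 22, and 10 of those met the rule there.

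**Figure D5:**
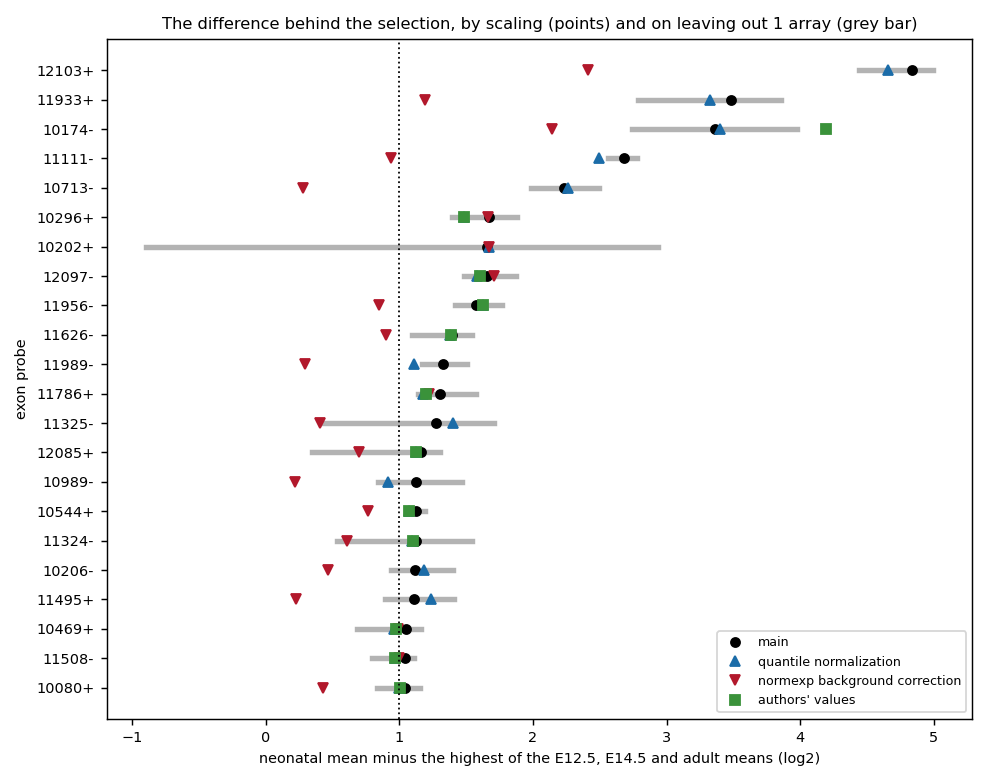
Neonatal mean minus the highest of the E12.5, E14.5 and adult means (log2, horizontal axis) for each exon under 4 scalings (points) and its range on leaving out 1 array (grey bars); the dotted line is the threshold of 1. The range of 10202+ ran from -0.89 to 2.94, and with normexp (red triangles) 7 exons reached the threshold.

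For reference, Gk, a glycerol kinase of glycerol use in the liver, had means of -0.98 ± 0.08 (SD, n = 3) at E14.5, -0.03 ± 0.25 at E17.5, 1.55 ± 0.38 in the neonate and 2.33 ± 0.50 in the adult, with the adult mean the highest. It and Hmgcs1 were the 2 matched genes of 14 listed for the metabolic switch at birth. Hmgcs1, an enzyme of cholesterol synthesis, had means of 7.88 ± 0.38 at E17.5, 5.76 ± 0.33 in the neonate and 8.86 ± 0.36 in the adult, so the neonatal mean was the lowest of these 3. The histone gene H2ac18 had means of 3.35 ± 0.16 at E14.5, 5.54 ± 0.07 at E17.5, 6.49 ± 0.15 in the neonate and 7.64 ± 0.14 in the adult.

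Of 3 listed pancreatic acinar genes 1 was matched, Amy2a5, a pancreatic amylase with near-identical copies. Its means were -0.58 ± 0.22 at E14.5, 5.56 ± 0.26 at E17.5, 6.03 ± 0.46 in the neonate and 2.26 ± 0.28 in the adult, so the neonatal mean was the highest of these 4, and the part of such cells in the exons' values was not tested. The 1 matched lymphoid gene of 3, Ccl21b, had means of 1.72 ± 0.05 at E14.5, 1.04 ± 0.20 at E17.5, 0.06 ± 0.43 in the neonate and 2.45 ± 0.92 in the adult. None of the macrophage, endothelial, bile duct or megakaryocyte genes listed was matched.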

How the data were processed

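Liver RNA of 5 stages was read on 15 Agilent arrays of 1 colour. Per the labels' protocols, ribosomal RNA was removed and random-primed Cy3 cRNA was made along whole transcripts. Per the file headers, the deposited spot intensity values are linear, background-subtracted and spatially detrended, with a grid built on mm9 and Feature Extraction 11.0.1.1; the submitters' processing notes name 10.7.3.1. Multiplicative detrending was applied on the slide 2 arrays except adult replicate 2, per the file headers. The authors also deposited a table of log2 values, which ranks the probes of each array as the scanner values do; its normalization is not given in the sources used here.

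Control spots, negative-control probes and spots marked as outliers were left out. Log2 of the processed signal minus each array's 75th percentile over noncontrol probes was fitted with limma 3.58.1 in R 4.3.3 (1 mean per stage, no block, 2-sided) over 37363 probes well above background on all 3 arrays of a stage, with Benjamini-Hochberg adjustment over all of them and calls at 0.05. Tests planned for E14.5 minus E12.5 and the adult minus E14.5 and their alternatives are not reported, since the means of these stages chose the exons. The script was tested on simulated data. Only 15 arrays, 3 a stage, limit the precision. Alternatives were quantile normalization, normexp (offset 50) on gMedianSignal and gBGMedianSignal (a mean-signal column was not used here), another percentile set, no detection filter, outlier spots kept, slide or replicate number as a block, single slides, the authors' values, other rule thresholds and leaving out each array. Named exons were those with the largest selection difference, the largest and smallest changes at both steps, the highest neonatal levels and those beside the threshold, which covers all 22; listed genes were matched through RefSeq accessions (GRCm38.p6 names). The exons and lists were chosen with earlier results of these data known. No sequences or coordinates were printed.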

Additional observations from a re-analysis of the deposited data

How the results depend on the processing

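Of the 22 exons, 7 met the rule with normexp, 12 probes met it in the authors' values (10 shared), 9 at a threshold of 1.5 and 58 with no detection filter (22 shared); leaving out 1 array gave 19 to 40 probes, 40 without neonatal replicate 3 (19 shared). For E17.5 minus E14.5 the 9 calls became 5 of 12 in the authors' values and ranged from 7 to 11 on leaving out 1 array. For the neonate minus E17.5 the 8 calls became 2 with slide as a block and 2 within slide 2, and ranged from 6 to 9. For E17.5 against the midpoint the 3 became 1 with no filter and ranged from 0 to 8. Among opposite-sign probes, the 5 calls of the neonate minus E14.5 became 1 with slide as a block (4 to 6 on leaving out 1 array), the 4 against the adult ranged from 3 to 4, and the 2 of the neonate minus E17.5 became 1 with no filter, 0 with slide as a block (1 at an unadjusted limma p below 0.05), 1 within slide 2, and 1 to 5 on leaving out 1 array. The cause was not tested. Single calls also moved with scaling: at the first step 11495+ was lost with quantile normalization (limma adjusted p = 0.101) and normexp (0.0762), 11989- with normexp (0.0592), another percentile set (0.0562) and no filter (0.0724), and 12097- was gained with quantile normalization (0.0125), normexp (0.0180), another percentile set (0.0219) and the authors' values (0.00964); at the second, 10080+ was lost with normexp (0.193), another percentile set (0.143), no filter (0.0954) and slide as a block (0.122), 11508- with no filter (0.0585), 12085+ was gained with quantile normalization (0.0423), normexp (0.0234) and the authors' values (0.0369), and quantile normalization also gained 11325- (0.0287) and 11495+ (0.0192), for 11 calls in all.

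Sign changes touched no called value. For E17.5 minus E14.5, 11324- was -0.21 with quantile normalization and -0.21 in the authors' values, and on leaving out 1 array it ranged from -0.69 to 0.65 and 11508- from -0.63 to 0.046. For the neonate minus E17.5, with slide as a block or within slide 2 10713- was -1.71, 10296+ -0.24 and 11989- 0.13; with normexp 10713- was -0.13 and 10989- -0.040; and on leaving out 1 array 10174- ranged from -0.070 to 1.16, 10713- from -0.49 to 1.71 and 11989- from -0.51 to 0.32.

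Scaling moved the median of all probes: for E17.5 minus E14.5 from -0.06 to -0.15 with quantile normalization and -0.16 in the authors' values; for the neonate minus E17.5 from 0.00 to -0.16 with the percentile over probes detected on all arrays. The share of higher calls among all probes went from 88.6% to 73.3% (quantile), 71.5% (normexp), 71.5% (authors' values) and 74.3% (slide as a block) for E17.5 minus E14.5, and from 46.5% to 36.2% for the neonate minus E17.5 with the percentile over probes detected on all arrays. Same-numbered replicates of different stages correlated from -0.24 to 0.48 over 30 pairs (7 over 0.1). Pairs with other numbers correlated from -0.42 to 0.31 over 60 pairs (9 over 0.1). These ranges overlap and do not settle whether a shared number marks a pairing. With the replicate block the calls were 9, 7 and 3 in the order above for the 3 comparisons of the exons. Dim signal limits most exons: 95 of their 330 values were not well above background.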
